A study of Mus musculus with 18 samples.

Results

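The factors described here are 8 transcription regulators that sort small cell lung cancer (SCLC) into subtypes or that mark the lung and endoderm lineages: Neurod1, Pou2f3, Yap1, Insm1, Nkx2-1, Foxa1, Foxa2 and Nfib. They were found by gene symbol among the 25239 genes of the deposited expression table, and all 8 were present. RNA was sequenced from 18 samples of 3 mouse cell lines, 4711-1, 4711-18 and 4716-11. They are called Type D, for lines whose cells die when p53 is restored. Each line was grown from a lung tumor of mice homozygous for floxed Rb1 and floxed Rbl2 and for a reversible gene trap in Trp53 (XTR), with a Rosa26 FlpO-ER allele, in which inhaled adenovirus had expressed Cre from the CMV promoter, so Rb1 and Rbl2 were deleted by design in every sample, controls included. The gene trap keeps p53 off until FlpO-ER, activated by 4-hydroxytamoxifen (4-OHT), removes it. Each line had been selected for an sgRNA against β-galactosidase (sgBgal) or for one of a pair of sgRNAs against Ppia (sgPpia#3.2 and sgPpia#4.1), the gene of cyclophilin A, and was then kept for 72 h with vehicle, named Control, or with 4-OHT at 500 nM, named Restored. This gave 6 conditions of 3 samples, 1 from each line, and 6 samples from each line. The labels do not give the animals' age, and they do not say whether 4711-1 and 4711-18 came from 1 mouse, nor whether any line is a single clone.

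SCLC usually has a neuroendocrine character that is set up by basic helix-loop-helix factors. NEUROD1 defines a neuroendocrine subtype, POU2F3 defines a subtype resembling the chemosensory tuft cell, and YAP1, the coactivator restrained by the Hippo kinases, marks a subtype low in neuroendocrine genes. INSM1 is a zinc-finger repressor used in pathology as a neuroendocrine marker. NKX2-1 (TTF-1) specifies lung and thyroid epithelium, FOXA1 and FOXA2 are pioneer factors that open chromatin in endoderm, and NFIB is a nuclear factor I protein known for promoting metastasis in mouse SCLC.

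In the GENCODE M21 annotation of GRCm38, Neurod1, Insm1 and Foxa2 lie on chromosome 2, Yap1 and Pou2f3 on chromosome 9, Nkx2-1 and Foxa1 on chromosome 12 and Nfib on chromosome 4. Nkx2-1 spans chr12:56531958-56536908 on the minus strand, and Foxa1 spans chr12:57540628-57546916 on the same strand, with 1010008 bases between their annotated starts. The noncoding gene Sfta3-ps starts downstream of Nkx2-1, with 2530 bases between them, and is transcribed in the same direction. Neurod1, Yap1, Nkx2-1 and Nfib, 4 of the 8, overlap a gene on the opposite strand in this annotation. Whether reads were assigned by strand is not given in the sources used here, so reads of these pairs may not be separated. Neurod1 and Nfib also overlap a gene on their own strand: Neurod1 lies over 4231 bases within Cerkl, and Nfib shares 2272 bases with Gm11267. Strand could not separate these reads, among them the few counted for Neurod1.

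Promoters of 5 of the 8 genes were in the RefSeq table for GRCm38.p6 (300 bases around the RefSeq start, 32851 promoters in all). They are shown for Nkx2-1 and Foxa1, whose levels were ordered differently over the 3 lines, and for Neurod1, which was near 0 in all of them. The Foxa1 window lies inside the GENCODE span given above and does not include its start, so it belongs to another annotated start. Capitals mark matches on either strand to the E-box CANNTG, bound by helix-loop-helix factors, the forkhead core TGTTTAC and the TEAD site GGAATG.
Nkx2-1 (chr12:56536859-56537158, minus strand): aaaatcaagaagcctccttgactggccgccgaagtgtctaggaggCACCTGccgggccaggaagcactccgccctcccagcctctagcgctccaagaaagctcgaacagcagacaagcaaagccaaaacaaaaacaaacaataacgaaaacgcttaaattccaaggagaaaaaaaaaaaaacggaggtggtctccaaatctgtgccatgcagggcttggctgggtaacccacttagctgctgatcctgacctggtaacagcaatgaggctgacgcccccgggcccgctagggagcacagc
Foxa1 (chr12:57546062-57546361, minus strand): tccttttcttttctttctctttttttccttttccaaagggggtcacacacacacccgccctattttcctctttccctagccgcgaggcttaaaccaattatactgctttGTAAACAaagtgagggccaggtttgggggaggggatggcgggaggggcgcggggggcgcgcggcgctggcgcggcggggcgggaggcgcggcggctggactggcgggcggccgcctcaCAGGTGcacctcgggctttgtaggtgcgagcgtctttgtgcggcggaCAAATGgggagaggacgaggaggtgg
Neurod1 (chr2:79456587-79456886, minus strand): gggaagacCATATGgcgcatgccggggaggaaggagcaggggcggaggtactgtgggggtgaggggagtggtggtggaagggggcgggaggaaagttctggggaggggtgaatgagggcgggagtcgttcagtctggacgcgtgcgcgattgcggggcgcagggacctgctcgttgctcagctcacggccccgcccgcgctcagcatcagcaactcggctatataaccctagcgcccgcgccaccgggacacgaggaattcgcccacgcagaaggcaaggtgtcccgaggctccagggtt

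The Foxa1 promoter held 1 forkhead core, a match found in 3.65% of all promoters, and 2 E-boxes. The Nkx2-1 and Neurod1 promoters each held 1 E-box, which 72.3% of all promoters hold, and no forkhead core. A TEAD site, present in 14.7% of promoters, was found in none of the 3 shown and once in that of Yap1. The Yap1 promoter had 49 CpG dinucleotides, more than 99% of promoters had, against 26 in Neurod1 and in Foxa1, 12 in Nkx2-1 and a median of 7. The near-silent Neurod1 and the expressed Foxa1 therefore held equal numbers of CpG in these windows.

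Trp53 ranged from 5.45 to 8.41 TPM, the length-normalized unit of the table, in the 9 Control samples and from 181 to 235.9 in the 9 Restored samples. Ppia ranged from 1551 to 2849 TPM with sgBgal, from 657.6 to 1233 with sgPpia#3.2, below every sgBgal sample, and from 1191 to 1952 with sgPpia#4.1, which overlapped them. Transcripts of Rb1, at 3.36 to 9.44 TPM in Control and 14.6 to 30.8 in Restored with no overlap, and of Rbl2, at 1.98 to 4.14 and 3.89 to 6.66, were still counted, and gene-level values do not show the deleted exons. Samples held 43311554 to 76075773 reads, as recovered from the steps of the TPM values. The neuroendocrine character given by the tissue label was looked for in 13 marker genes, of which 8 were under 1 TPM in all samples. The marker Chga, a protein of secretory granules, did not exceed 0.156 TPM. The marker Syp, a synaptic vesicle protein, ranged from 3.03 to 7.12 TPM. The epithelial keratins Krt8 and Krt18 had medians of 5427 and 4528 TPM. They do not stand for the whole list of 8 epithelial markers, of which 1 was under 1 TPM in all samples. Cldn3, Cldn4 and Epcam of this list were lower in 4716-11 than in 4711-18, with log2 differences of -3.79, -1.79 and -1.54. Summed over 4 endothelial markers the highest sample reached 1.51 TPM, 5 of 7 immune markers and 8 of 10 fibroblast markers were under 1 TPM in all samples, and Vim, one of the others, had a median of 3319 TPM.

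Of the factors that define subtypes, Yap1 alone was abundant. Its median over each line's 6 samples was 100.4 TPM in 4711-1, 102.5 in 4711-18 and 76.9 in 4716-11, and its mean over the 18 samples was above that of 91.7% of genes in the table. Neurod1, the neurogenic factor of a neuroendocrine subtype, gave between 1 and 13 reads in a sample, 78 reads in all, or 0.0124 to 0.156 TPM. Its range was 0.0124 to 0.111 TPM in 4711-1, 0.0160 to 0.139 in 4711-18 and 0.0191 to 0.156 in 4716-11, so the lines overlapped almost completely. Pou2f3, the tuft cell factor, was at 0 in 12 samples and gave 17 reads in the others. None of these reads came from 4711-18, in which all 6 samples were at 0. A count of 0 allows up to 3 reads, which for Pou2f3 was 0.0345 to 0.0563 TPM depending on the sample (such limits cover counting error only). Over the 6 samples of a line it gave 10 reads in 4711-1, 0 in 4711-18 and 7 in 4716-11, and with at most 4 reads in any sample the lines were not tested against each other.

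The remaining factors ran from near 0 to 155.3 TPM in single samples. Foxa2 was as abundant as Yap1, with a mean over the 18 samples above that of 91.9% of genes. The order of the others depended on the line. In 4711-1 Foxa1 was above 90.2% of genes, Nfib above 82.4%, Nkx2-1 above 58.2% and Insm1 above 57.3%. In 4711-18 Nkx2-1 led at 90.4%, before Foxa1 at 84.8%, Nfib at 76.8% and Insm1 at 36.2%. In 4716-11 Nfib at 83.9%, Foxa1 at 83.7% and Nkx2-1 at 80.3% lay close together, and Insm1 was at 34.7%. The values cross between lines: Insm1 and Foxa1 were highest in 4711-1, Nkx2-1 in 4711-18 and Nfib in 4716-11.

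**Figure D1:**
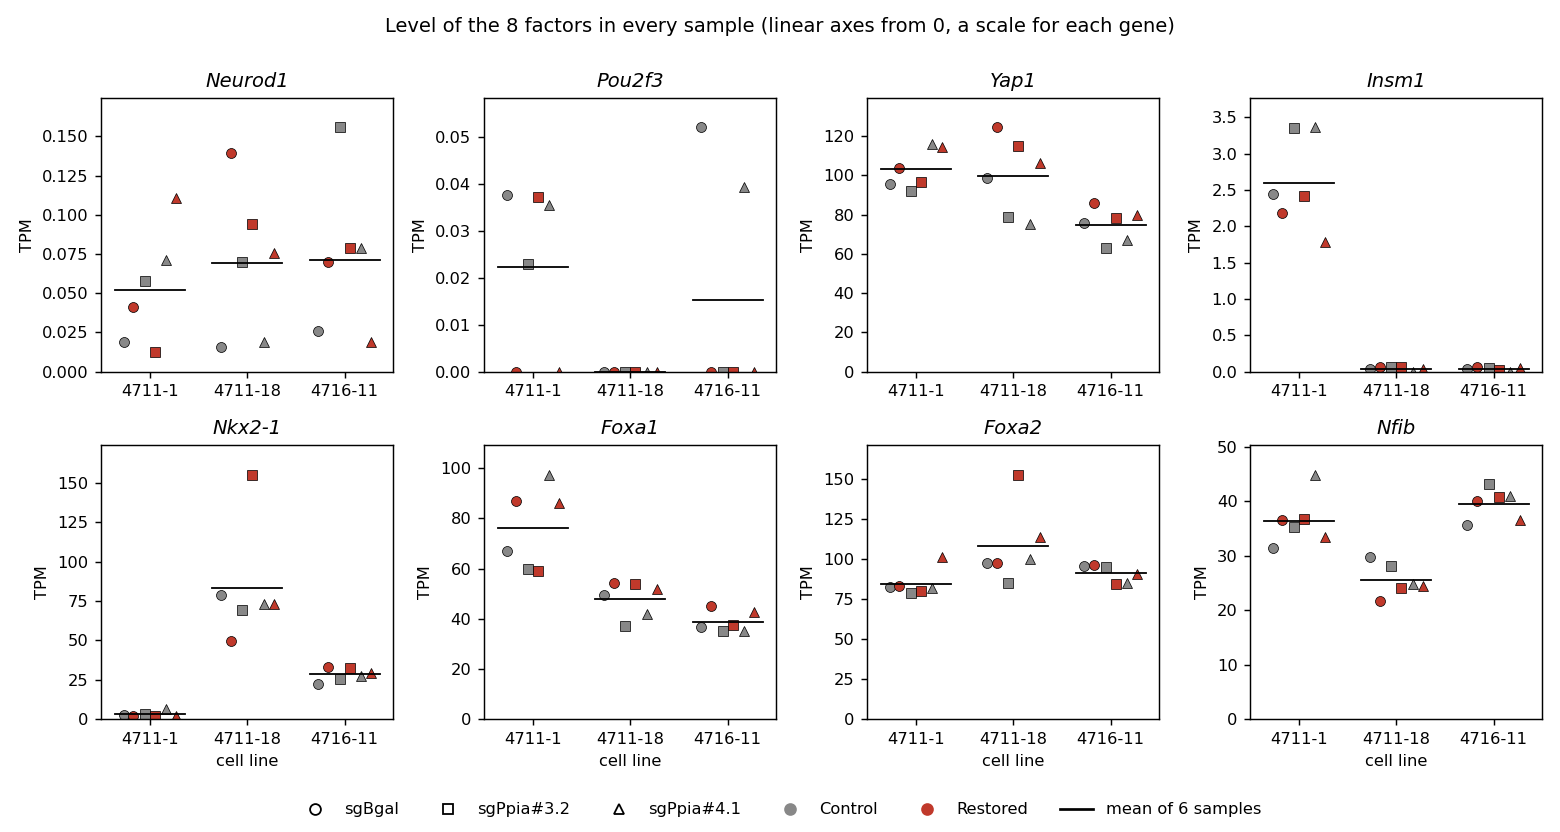
TPM of each factor (vertical axes, linear from 0 with a scale for each gene) in the 6 samples of each cell line (horizontal axis), with marker shape for the sgRNA, grey for Control, red for Restored and a line at the mean of 6 samples. Insm1 is above 1.7 TPM only in 4711-1, Nkx2-1 is lowest in 4711-1 and highest in 4711-18, and Neurod1 and Pou2f3 stay under 0.16 TPM everywhere.

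The first comparison was between the cell lines. Neurod1 and Pou2f3 did not reach 1 TPM in 3 samples and were not tested. The other 6 factors were tested among 12828 genes with limma on log2(TPM + 1), adjusting for condition, and a gene was called when its adjusted p (Benjamini-Hochberg) was under 0.05 and its log2 difference was at least 1 (2-fold). Nkx2-1 was called between 4711-18 and 4711-1, where 8.93% of all genes were called, between 4716-11 and 4711-1, where 6.82% were, and between 4716-11 and 4711-18, where 8.96% were. Insm1 passed both thresholds in the comparisons that involve 4711-1, but it entered the test only through its level in 4711-1, so these calls are not read against the shares of all genes. The 6 samples of a line are cultures of that line, so these p-values measure the spread between cultures and compare these 3 lines only.

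Nkx2-1 had the widest range of the 8. In 4711-1 its 3 Control samples, given in the order sgBgal, sgPpia#3.2 and sgPpia#4.1 here and below, were at 2.56, 3.54 and 6.77 TPM and its Restored samples at 1.97, 1.83 and 1.73 TPM. In 4716-11 the Control samples were at 22.1, 25.7 and 27.3 TPM and the Restored samples at 33.2, 32.4 and 29.6 TPM. In 4711-18 the Control samples were at 78.9, 69.6 and 72.8 TPM and the Restored samples at 49.3, 155.3 and 73.0 TPM. The 3 lines did not overlap in any sample, and each stood in the same order under every condition.

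Nkx2-1 was higher in 4711-18 than in 4711-1 by 4.39 on the log2 scale (SE 0.26, limma adjusted p = 1.517e-08) and higher in 4716-11 than in 4711-1 by 2.95 (SE 0.26, adjusted p = 1.312e-06). It was lower in 4716-11 than in 4711-18, with a log2 difference of -1.44 (SE 0.26, adjusted p = 0.000426). Values that did not overlap between 6 and 6 samples were found for 14.8% of genes between 4711-18 and 4711-1, for 17.8% between 4716-11 and 4711-1 and for 17.7% between 4716-11 and 4711-18. The low level in 4711-1 still rested on 109 to 646 reads per sample, well over the count of the near-silent factors.

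Insm1 was detected well in only 4711-1. There its Control samples were at 2.45, 3.36 and 3.37 TPM and its Restored samples at 2.18, 2.41 and 1.78 TPM, from 1372 reads over the 6 samples. In 4711-18 it gave 18 reads over 6 samples, with a highest value of 0.0657 TPM, and in 4716-11 it gave 19 reads, with a highest value of 0.0690 TPM. Because the filter admitted Insm1 through 4711-1 alone, no p is given for the comparisons with 4711-1. The log2 difference of 4711-18 from 4711-1 was -1.77 (SE 0.10) and that of 4716-11 from 4711-1 was -1.77 (SE 0.10). The pseudocount of 1 understates this difference, since the means were 2.59 TPM in 4711-1 against 0.0431 and 0.0374 TPM. The lower pair could not be ordered, with a log2 difference of -0.01 (95% interval -0.21 to 0.20).

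Foxa1 was highest in the line with the least Nkx2-1. Its 6 samples ranged from 59.2 to 97.5 TPM with a median of 76.4 in 4711-1, from 37.2 to 54.1 with a median of 50.7 in 4711-18, and from 35.1 to 45.0 with a median of 37.1 in 4716-11. All samples of 4711-1 were above all samples of the other lines, which overlapped each other. The log2 difference of 4716-11 from 4711-1 was -0.93 (SE 0.11, adjusted p = 2.328e-05) and that of 4711-18 from 4711-1 was -0.64 (SE 0.11, adjusted p = 0.0003822). Neither reached the 2-fold threshold, and at any fold 46.6% and 49.1% of all genes passed the adjusted p in these comparisons.

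Nfib was lowest in 4711-18, where its samples ranged from 21.6 to 29.7 TPM with a median of 24.7. It ranged from 31.4 to 44.9 TPM in 4711-1 and from 35.7 to 43.1 TPM, median 40.4, in 4716-11, and these ranges overlapped each other but not that of 4711-18. The log2 difference of 4716-11 from 4711-18 was 0.62 (SE 0.09, adjusted p = 0.0001214), and at any fold 55.2% of genes passed in this comparison. Of the other nuclear factor I genes, Nfia, Nfic and Nfix, all 3 were tested and none was called between lines, where 6.82% to 8.96% of genes were, or with p53 over all sgRNAs, where 8.93% were. Nfix was also lowest in 4711-18, at 33.9 ± 4.5 TPM (SD, n = 6) against 42.5 ± 5.5 in 4711-1 and 47.5 ± 5.5 in 4716-11.

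Yap1 and Foxa2 differed least. Yap1 ranged from 92.3 to 115.8 TPM in 4711-1, from 75.1 to 124.7 in 4711-18 and from 63.2 to 86.0 in 4716-11. The lowest line differed from 4711-1 by a log2 of -0.46 (SE 0.10, adjusted p = 0.002284) with no overlap, and from 4711-18, which it overlapped, by -0.39 (SE 0.10, adjusted p = 0.004824). Foxa2 ranged from 78.7 to 101.3 TPM in 4711-1, from 85.4 to 152.9 in 4711-18 and from 84.5 to 96.2 in 4716-11, so that all 3 lines overlapped. Its largest log2 difference between lines was 0.33 (SE 0.11, adjusted p = 0.02819), from 4711-1 to 4711-18. The median of all genes was itself shifted by 0.09, -0.08 and -0.15 in the comparisons of 4711-18 with 4711-1, 4716-11 with 4711-1 and 4716-11 with 4711-18.

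**Figure D2:**
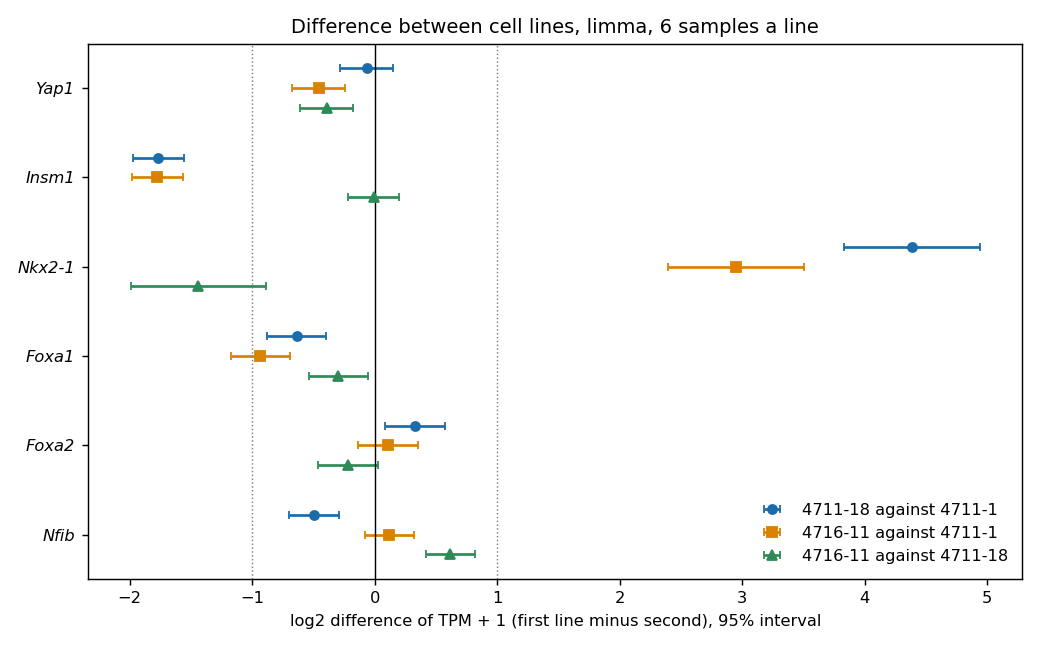
Log2 difference of TPM + 1 between cell lines for the 6 factors tested (horizontal axis; first line minus second), with the limma estimate and its 95% interval. Dotted lines mark the 2-fold threshold; Nkx2-1 lies past it in all 3 comparisons and Insm1 in the 2 that involve 4711-1.

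The share of the sum of squares over the 18 samples that went with the cell line was 94.7% for Nkx2-1, 79.9% for Nfib and 77.2% for Foxa1. It was 52.9% for Yap1 and 38.4% for Foxa2, against a median of 37.4% over all genes tested. The p53 state took 20.7% for Yap1 and 10.7% for Foxa2, and less than 5% for the other 4, against a median of 22.6%. Of the genes tested, 98.6% had a lower line share than Nkx2-1. The line share of Insm1, 97.3%, is neither ranked nor set against the median of all genes, because it entered the test through 1 line alone.

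**Figure D3:**
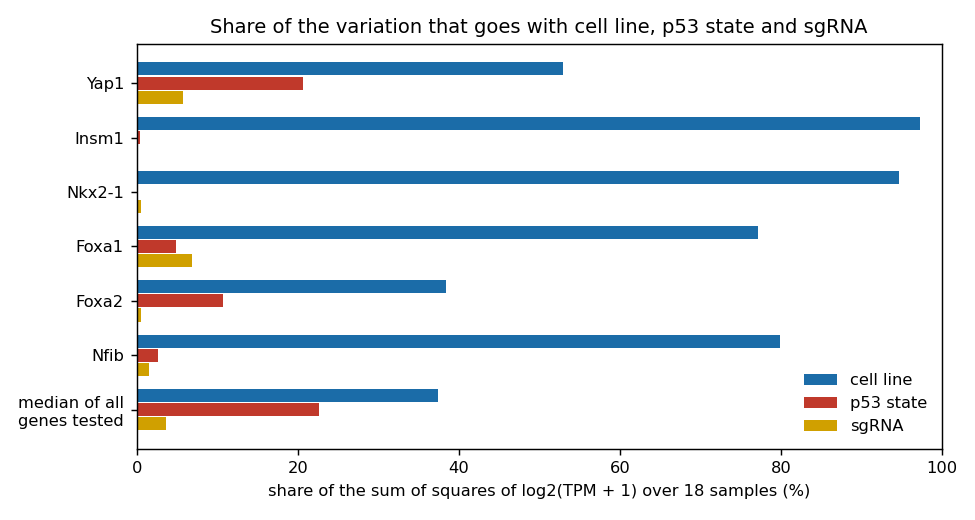
Share of the sum of squares of log2(TPM + 1) over the 18 samples (horizontal axis, percent) that goes with cell line (blue), p53 state (red) and sgRNA (yellow), for the 6 factors and for the median of all 12828 genes tested. The blue bar is longest for every factor, from 38.4% for Foxa2 to 94.7% for Nkx2-1, and 97.3% for Insm1, which entered the test through 1 line alone. Among the factors the red bar exceeds 20% only for Yap1.

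The genes whose levels followed each factor most closely were listed by Pearson's r over the 18 samples, which share lines and so are not independent. For Nkx2-1 the closest was its neighbor Sfta3-ps (r = 0.968), at 0.205 ± 0.103 TPM in 4711-1, 15.1 ± 4.8 in 4711-18 and 3.68 ± 0.82 in 4716-11 (SD, n = 6). Clca3a1 and Palm3, each at r = 0.967, followed. For Insm1 they were Gpx7 (r = 0.995), Shc2 (r = 0.989) and Cdh9 (r = 0.988), each at under 0.15 TPM on average outside 4711-1. Dnmbp was among the 3 closest to Foxa1 (r = 0.925), at 30.0 ± 6.7 TPM in 4711-1, 17.4 ± 3.5 in 4711-18 and 13.4 ± 1.6 in 4716-11. The list for Nfib was Gjc1, Fndc4 and Car5b, for Yap1 Mtrr, Diaph2 and Trip12, and for Foxa2 Rac1, Txndc15 and Fgd2, with r of 0.929, 0.945 and 0.858 for the first of each.

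Genes that act in the same lineages were followed in lists of known partners and targets. Of 20 lung epithelial genes, 10 were tested. Between 4711-18 and 4711-1, 3 were called higher and 3 lower, where 3.80% and 5.14% of all genes were, with a list median of 0.43 against 0.09 for all genes. Sfta3-ps was higher by 3.70 (SE 0.16). It averaged 0.205 TPM in 4711-1 and so entered the test through the other lines. Its calls against 4711-1 are therefore not read against the shares of all genes. Sftpb, the surfactant protein of alveolar type II cells, was higher by 2.51 (SE 0.53, limma adjusted p = 0.00158), although its 6 samples of 4711-18 spread widely around 15.3 ± 18.1 TPM (SD). Cldn18, a claudin of lung and stomach, went the other way by -5.20 (SE 0.19, adjusted p = 1.867e-10), with means of 73.1 TPM in 4711-1, 1.00 in 4711-18 and 62.9 in 4716-11. Napsa, an aspartic protease of alveolar type II cells, was lower in 4711-18 as well (-1.09, SE 0.21, adjusted p = 0.0007141), so the lung genes did not move one way in the line with the most Nkx2-1. Within 4711-18 Sftpb was also lower in Restored, as given with the p53 results. Between 4716-11 and 4711-1, where 2.42% of all genes were higher and 4.40% lower, 1 lung gene was called, Sfta3-ps. Between 4716-11 and 4711-18, where 3.81% and 5.14% were, 1 was called higher and 4 lower.

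Of 19 gut and liver endoderm genes 14 were tested. Hnf4a, a nuclear receptor of gut and liver, had a median of 148 TPM, and Cdx2, which specifies intestine, a median of 74.3 TPM. Between 4711-18 and 4711-1, 4 were called higher and 4 lower, where 3.80% and 5.14% of all genes were, with a list median of 0.13 against 0.09. Pdx1, the pancreatic and duodenal homeobox factor, averaged 139.8 TPM in 4711-1, 77.3 in 4716-11 and 1.16 in 4711-18, a log2 difference of 4711-18 from 4711-1 of -5.98 (SE 0.26, adjusted p = 7.628e-10). Tff2, a gastric trefoil peptide, differed by -4.84 (SE 0.35, adjusted p = 1.677e-07). Between 4716-11 and 4711-1, 1 gene was called higher and 3 lower, beside 2.42% and 4.40% of all genes (list median -0.39 against -0.08). Between 4716-11 and 4711-18, 3 were called higher and 4 lower, beside 3.81% and 5.14% (list median -0.34 against -0.15).

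Among 24 neuroendocrine and neuronal factors 9 were tested and 15 were under 1 TPM in all samples. Sox2 and Lhx2, regulators of progenitor cells, were lower in both other lines than in 4711-1, the line with Insm1, where 5.14% (4711-18) and 4.40% (4716-11) of all genes were lower. Sox2 averaged 13.6 TPM in 4711-1, 0.916 in 4711-18 and 0.452 in 4716-11 (log2 difference of 4716-11 from 4711-1 -3.27, SE 0.17). With means under 1 TPM in the other lines, Sox2 entered the test largely through 4711-1. Its calls are therefore not read against these shares. Between 4716-11 and 4711-18, where 8.96% of genes were called, none of this list was. Ddc, an amine-synthesizing enzyme among the neuroendocrine markers, was instead highest in 4711-18, by 3.62 over 4711-1 (SE 0.17, adjusted p = 2.536e-09).

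Of 18 tuft cell genes 5 were tested, of which 2 were called between 4711-18 and 4711-1 (8.93% of all genes), 1 between 4716-11 and 4711-1 (6.82%) and 1 between 4716-11 and 4711-18 (8.96%). Ptgs1 and Colca2 were lower in 4711-18 than in 4711-1, by a log2 of -1.46 (SE 0.18) for Colca2, a coactivator of POU2F3. Ptgs1 was also lower in 4716-11 (-2.17, SE 0.25, limma adjusted p = 1.595e-05). Colca2 was higher in 4716-11 than in 4711-18. It stood at 0 in all 6 samples of 4711-18, as did Pou2f3. Colca2 therefore entered the test only through the other lines, so its calls are not read against these shares. Foxa3, of the forkhead genes tested (5 of 8), was lower in 4716-11 than in 4711-18 by -1.58 (SE 0.22), with means of 0.161 and 2.66 TPM. Foxa3 entered the test through the lines other than 4716-11, so no p is given for it. No other forkhead gene of the list was called in these 3 comparisons.

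The second comparison was between Restored and Control. Across all sgRNAs none of the 6 factors tested was called, where limma called 8.93% of all genes and 6130 genes had an unadjusted p under 0.05. Limma-voom on recovered reads also called 0. The same count of 0 was found with sgBgal, where 7.64% of genes were called, with sgPpia#3.2 (5.75%) and with sgPpia#4.1 (6.09%). Within 4711-1, 4711-18 and 4716-11, where 8.43%, 13.6% and 10.7% of genes were called, no factor was called either. At an unadjusted p under 0.05 there were 0 factors over all sgRNAs and with each sgRNA. Within lines there were 2 in 4711-1 (Insm1 and Nkx2-1), 2 in 4711-18 (Yap1 and Foxa2) and 0 in 4716-11. Of the 12828 genes tested, 5622 in 4711-1, 7299 in 4711-18 and 6217 in 4716-11 had an unadjusted p under 0.05. With sgBgal, sgPpia#3.2 and sgPpia#4.1 these were 3658, 3052 and 3136 genes. With 8.93% of genes called, 0 of 6 is close to the background.

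All log2 values of this comparison have to be read against a shift of the whole table, because the median of all genes was 0.17 higher in Restored and fell to -0.01 after median-of-ratios rescaling. Yap1 differed by 0.25 (SE 0.14, 95% interval -0.04 to 0.55, adjusted p = 0.1615), Foxa1 by 0.20 (interval -0.28 to 0.68) and Foxa2 by 0.14 (interval -0.11 to 0.40). These 3 lay within 0.1 of the median gene. Nfib differed by -0.10 (interval -0.45 to 0.25), Insm1 by -0.10 (interval -1.05 to 0.85) and Nkx2-1 by -0.11 (interval -2.20 to 1.98). The intervals for Yap1, Foxa1, Foxa2 and Nfib lie inside the 2-fold threshold on either side, and in this fit those of Insm1 and Nkx2-1 do not. With a replicate block for the cell line these too lie inside it, at -0.27 to 0.06 for Insm1 and -0.56 to 0.34 for Nkx2-1.

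The same samples were compared by pairs of cell line and sgRNA. Yap1 was higher in Restored in 8 of 9 pairs, as were 43% of all genes in at least 8, and after rescaling in 5. In 4711-18 its Control samples were at 98.7, 78.8 and 75.1 TPM and its Restored samples at 124.7, 115.1 and 106.2 TPM, which did not overlap, as for 49.8% of genes. In 4716-11 the Control samples were at 75.6, 63.2 and 67.0 TPM and the Restored samples at 86.0, 78.2 and 79.8 TPM, again without overlap, as for 64.4% of genes. In 4711-1 the Control samples, at 95.6, 92.3 and 115.8 TPM, overlapped the Restored samples at 104.0, 96.9 and 114.3 TPM. The difference in 4711-18 was 0.46 (SE 0.13, adjusted p = 0.00672), under the fold threshold, beside a median of 0.22 for all genes there and 51.1% of genes passing the adjusted p at any fold.

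Foxa2 was also higher in 8 of 9 pairs, and in 2 after rescaling. Foxa1 was higher in 7 pairs and Nfib in 3. With a replicate block for the line the SE of Yap1 fell to 0.08 (adjusted p = 0.01519) and that of Nkx2-1 to 0.21 (adjusted p = 0.6686), and no factor reached the fold threshold. At any fold 63.4% of genes passed the adjusted p in that fit. With the replicate block on rescaled values Nfib differed by -0.29 (SE 0.07, adjusted p = 0.003087), lower in 8 of 9 pairs as were 30.3% of genes in at least 8, and Yap1 by 0.06 (adjusted p = 0.5244). At any fold 61.3% of genes passed the adjusted p there. This last fit was chosen after seeing the data.

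**Figure D4:**
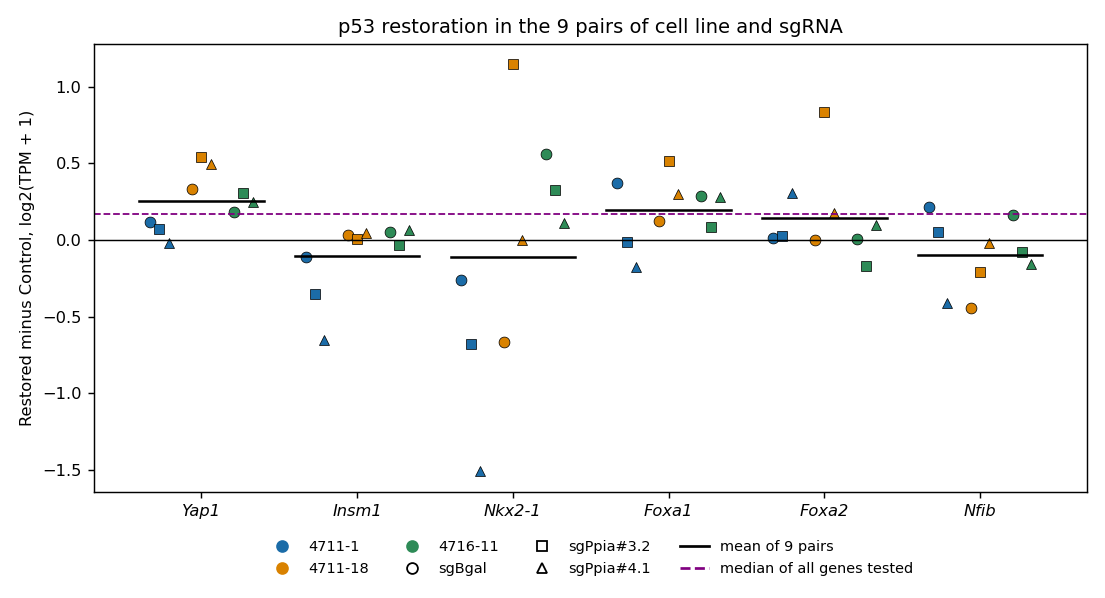
Restored minus Control on the log2(TPM + 1) scale (vertical axis) for the 6 factors in each of 9 pairs, with color for the cell line and marker shape for the sgRNA, black lines at the mean of 9 pairs and a dashed line at 0.17, the median of all genes. Nkx2-1 spreads from -1.51 to 1.15, below 0 in all 3 pairs of 4711-1 and above 0 in all 3 of 4716-11, whereas Yap1 stays between -0.02 and 0.54.

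Nkx2-1 moved differently from pair to pair. It was lower in Restored in all 3 pairs of 4711-1 (log2 difference -0.82, SE 0.31, limma adjusted p = 0.0521). These pairs were at -0.26, -0.68 and -1.51, the last with the sgPpia#4.1 Control sample at 6.77 TPM. It was higher in all 3 pairs of 4716-11 (0.33, SE 0.31, adjusted p = 0.4191), and neither difference passed the test. All 3 pairs moved one way for 66.4% of genes in 4711-1 and for 78.7% in 4716-11. In 4711-18 it was lower with sgBgal, higher with sgPpia#3.2 and hardly different with sgPpia#4.1 (mean 0.16, SE 0.31, adjusted p = 0.6914). The F-test of a difference in response between the lines gave an adjusted p of 0.2537 for Nkx2-1, where 3.59% of genes passed, and no other factor passed it.

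Insm1 in 4711-1 was lower in Restored in each of 3 pairs, and the Restored samples, up to 2.41 TPM, were all below the lowest Control sample at 2.45 TPM, as happened in either direction for 44.7% of genes. The log2 difference was -0.37 (SE 0.10, adjusted p = 0.01227), under the fold threshold, where 33.5% of genes passed the adjusted p at any fold. It rested most on the sgPpia#4.1 pair, without which it was -0.23 (adjusted p = 0.2702), and over all alternatives the adjusted p ran from 0.002351 to 0.2702. The test of the difference between lines missed the threshold (adjusted p = 0.1921). The sample 4711-18 with sgPpia#3.2 and restored p53 had the highest level of both Nkx2-1 and Foxa2, at 155.3 and 152.9 TPM. In the same line Foxa1 was higher in Restored in all 3 pairs, where 68% of genes moved one way in all 3, with Control samples at 49.6, 37.2 and 41.8 TPM and Restored samples at 54.1, 53.7 and 51.8 TPM.

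For the factors below the filter, exact sign-flip tests over the 9 pairs were used, two-sided and unadjusted. Their smallest possible p is 0.003906 for Neurod1 but 0.0625 for Pou2f3, which was at 0 in both samples of 4 pairs, so its test could not reach 0.05. Neurod1 gave 39 reads in Control and 39 in Restored (mean 0.0571 ± 0.0449 against 0.0712 ± 0.0416 TPM, SD, n = 9, exact p = 0.5195). Pou2f3 gave 14 reads in Control and 3 in Restored (0.0208 ± 0.0210 against 0.00412 ± 0.0124 TPM, SD, n = 9, exact p = 0.125), with 5 pairs informative and 4 of them lower. Exact permutation tests of 3 samples against 3, which cannot go below 0.1, gave 0.1 for Neurod1 with sgBgal and 0.4 or more for the other tests of both genes.

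The third comparison was between the sgRNAs. None of the 6 factors was called between sgPpia#3.2 or sgPpia#4.1 and sgBgal, where limma called 0.00780% of genes, Ppia itself, and 0.00% respectively. None of the factors had an unadjusted p under 0.05 in this fit, which has no term for the cell line. Ppia was lower with sgPpia#3.2 by a log2 of -1.32 (SE 0.18, limma adjusted p = 0.04535). With the replicate block for the line its SE was 0.11 (limma adjusted p = 0.0001151). This call depended on the fit, and 8 of 12 alternatives called no gene at all in this comparison, among them rescaling, leaving out any 1 line and limma-voom without the replicate block. Every fit with the replicate block called at least 1 gene there. The sgRNA took between 0.2% and 6.9% of the sum of squares of the 6 factors, against a median of 3.6% over all genes.

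The lists were read for p53 in the same way, over all sgRNAs unless a line is named. Of 20 YAP partners and targets, 3 rose in Restored and none fell, where 6.37% of all genes rose and 2.56% fell, and the list median was 0.39 against 0.17. They were Amotl1, an angiomotin that binds YAP (1.80, SE 0.46, adjusted p = 0.006569), Tead3, a DNA-binding partner of YAP (1.35, SE 0.26, adjusted p = 0.0009727) and Crim1 (1.24, SE 0.13, adjusted p = 3.91e-06). The classical target Ankrd1 averaged 336 ± 262 TPM in Control and 759 ± 503 in Restored (SD, n = 9) and was called over all sgRNAs with the replicate block (1.30, SE 0.19, adjusted p = 5.091e-05) but not without it. Between lines Ankrd1 was lower in 4711-18 than in 4711-1 by -2.35 (SE 0.23, adjusted p = 2.849e-06), Amotl1 lower in 4716-11 than in 4711-1 by -1.98 (SE 0.17, adjusted p = 1.038e-06) and Ccn2 higher in 4716-11 than in 4711-18 by 1.41 (SE 0.43, adjusted p = 0.01445). In all, 0 YAP list genes were called higher and 2 lower in 4711-18 against 4711-1, 0 and 1 in 4716-11 against 4711-1, and 2 and 1 in 4716-11 against 4711-18, beside 3.80% and 5.14%, 2.42% and 4.40%, and 3.81% and 5.14% of all genes.

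Over all sgRNAs no lung epithelial gene was called with p53 without the block, and Sftpb was called lower with it (-1.71, SE 0.43, adjusted p = 0.003684). Within lines Sftpb was called lower in 4711-18 (-3.67, SE 0.37, adjusted p = 9.581e-07) and in 4716-11 (-1.12, SE 0.37, adjusted p = 0.02354), and its response differed between lines (F-test adjusted p = 0.003114). Napsa was called higher in 4711-1 (1.02, SE 0.28, adjusted p = 0.01177) and in 4716-11 (1.20, SE 0.28, adjusted p = 0.003275). Of the gut and liver endoderm genes 3 of 14 fell and none rose, where 2.56% of all genes fell and 6.37% rose, with a list median of -0.67 against 0.17. The same shares apply to the forkhead list (5 tested) and the neuroendocrine and neuronal list (9 tested). The 3 gut and liver genes that fell were Cdh17, the intestinal cadherin (-1.91, SE 0.39, adjusted p = 0.001295), Anxa10 (-1.70, SE 0.47, adjusted p = 0.01049) and Tff3 (-1.28, SE 0.42, adjusted p = 0.0253). Of the forkhead list Foxm1, a factor of cell division, fell by 1.91 on the log2 scale (SE 0.26, adjusted p = 5.8e-05). Of the neuroendocrine and neuronal factors Hes6 (1.65, SE 0.20, adjusted p = 1.981e-05) and Hes1 (1.27, SE 0.24, adjusted p = 0.0007375) rose and Mycl (-1.69, SE 0.29, adjusted p = 0.0003502) fell. The median of this list was 0.65 against 0.17. HES1 is a Notch target that represses neuroendocrine genes, HES6 counteracts it, and MYCL is a MYC family oncogene of neuroendocrine SCLC. No gene of the tuft cell list was called over all sgRNAs or with any 1 sgRNA, and within lines Alox5ap, a protein of leukotriene synthesis, was called higher in 4716-11 (1.22, SE 0.20, adjusted p = 0.0002025).

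Among the markers of other cell types Cd68, a lysosomal protein of macrophages, rose with p53 by 2.88 (SE 0.18, adjusted p = 2.451e-08), while Ptprc, which marks all leukocytes, was under 1 TPM in all samples. Fn1, an extracellular matrix protein, rose by 1.80 (SE 0.47, adjusted p = 0.007252), the epithelial markers had a median of -0.58 with 0 of 7 called, and 0 of 5 neuroendocrine markers tested were called over all sgRNAs, where 8.93% of genes were. With the replicate block Cldn4, a claudin of epithelia, was called higher (1.22, SE 0.28, adjusted p = 0.001626). Within lines, the epithelial markers called were Cldn3, lower in 4711-1, Cldn4, higher in 4711-18, Epcam, lower in 4711-18, and Krt8, lower in 4716-11, and the neuroendocrine marker Ddc was called lower in 4711-18, where 8.43%, 13.6% and 10.7% of all genes were called in 4711-1, 4711-18 and 4716-11. The summed immune markers were between 3.13 and 7.44 TPM in Control and between 22.9 and 42.8 TPM in Restored. Of the 7 genes Cd68 carried this sum, with means of 3.22 TPM in Control and 29.1 in Restored, while Lyz2, the other immune marker tested, averaged 1.15 and 1.33 TPM. The part of these genes in the results above was not tested.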

How the data were processed

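RNA of 18 cell line samples was sequenced from NEBNext Ultra II libraries. The authors deposited TPM for 25239 genes, 1 column per sample. Per the labels' processing notes, bcl2fastq 2.17 and HISAT2 were used, and the build is named both mm10 and GRCm39. The study's methods give Kallisto or HISAT2 without saying which. The counter, annotation and use of strand are not given in the sources used here. Gene positions come from GENCODE M21 (GRCm38), and promoters from RefSeq (GRCm38.p6).

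TPM steps gave whole reads for 21824 of 21824 genes above 0 (tolerance 0.01 reads), which sum to 43311554 to 76075773 reads per sample.

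Genes reaching 1 TPM in 3 or more samples were kept (12828, 6 of the 8 factors). limma 3.58.1 (R 4.3.3) was fitted on log2(TPM + 1), with 6 condition means for p53 and sgRNA, line plus condition for the lines, and line by state within lines. Fold changes on this scale understate changes of low genes. Calls needed an adjusted p under 0.05 and a log2 difference of 1, and the response difference the adjusted p alone. Cell line pairs the samples (labels); residuals of samples of a line correlated with a mean r of 0.729 (45 pairs, lowest 0.58) against -0.361 otherwise. The fits were tested on simulated data.

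Genes named were all 8 factors, the 3 most correlated genes for each tested factor, and up to 3 called genes with the largest change per list for p53 and for lines, with Trp53, Ppia and some markers; a few genes that this rule names are not reported here. Other genes named with levels (Rb1, Rbl2, Hnf4a, Cdx2, Nfix, Syp, Chga, Krt8, Krt18, Vim, Ptprc, Lyz2, Ankrd1 with p53, and Cldn3, Cldn4, Epcam, Ddc, Sftpb and Alox5ap within lines or with the block, and Napsa) were chosen after their values were seen. Members and lists were chosen with earlier results of these data known. Alternatives were a pseudocount of 0.1, rescaling, other filters, trend and robust eBayes, blocks, Control samples alone, no term for condition, leaving out lines or sgRNAs, and, added after seeing the data, limma-voom on recovered reads and the block with rescaling. Python 3.11.15, numpy 2.4.6 and pandas 2.3.3 were used.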

Additional observations from a re-analysis of the deposited data

Results flagged for a closer look

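In groups of 6 samples of 1 cell line, 24 were examined and 3 had a sample whose gap to its nearest neighbor, divided by the range, exceeded Dixon's 95% critical value for 6 samples. Chance flags about 1 in 20 groups. Nkx2-1 in 4711-1 stood at 6.77 TPM in the sgPpia#4.1 Control sample, where the next was 3.54 (gap over range 0.642). Nkx2-1 in 4711-18 stood at 155.3 TPM in the sgPpia#3.2 Restored sample, where the next was 78.9 (0.721). Foxa2 in 4711-1 stood at 101.3 TPM in the sgPpia#4.1 Restored sample, where the next was 83.5 (0.786).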

How the results depend on the processing

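Counts of factors called were equal to those reported under 142 of 145 settings tried. The exceptions were p53 restoration in 4711-1 with a pseudocount of 0.1 TPM, where 1 factor was called, Nkx2-1 (-1.06), and 4716-11 against 4711-1 in Control samples alone and without sgPpia#3.2, where 3 factors were called in place of 2, Foxa1 being added (-1.01 and -1.05). The replicate block changed no call for a factor: 0 were called over all sgRNAs with it. Differences that changed sign were all outside the calls. Over all sgRNAs these were Insm1 by limma-voom on recovered reads (0.431) and Foxa2 after rescaling (-0.054, with the replicate block or without). Leaving out 1 line gave Insm1 -0.172 to 0.029 and Nkx2-1 -0.328 to 0.247, both highest without 4711-1. Within 4711-1 rescaling gave -0.093 for Yap1, -0.091 for Foxa1 and -0.035 for Foxa2, and limma-voom -0.053 for Yap1 and -0.055 for Foxa1. In 4711-18 rescaling gave -0.088 for Nkx2-1. Leaving out 1 sgRNA gave -0.175 to 0.082 for Yap1 in 4711-18 against 4711-1 (highest without sgPpia#4.1) and -0.017 to 0.004 for Insm1 in 4716-11 against 4711-18. It gave -0.096 (without sgBgal) to 0.178 for Foxa1 and -0.179 to 0.135 (without sgPpia#4.1) for Nfib within 4711-1, and -0.332 (without sgPpia#3.2) to 0.575 for Nkx2-1 within 4711-18. Within 4716-11 it gave -0.079 to 0.053 for Foxa2 and -0.119 to 0.042 for Nfib. The cause was not tested.

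Neurod1 and Pou2f3 rest on 78 and 17 reads, so depth limits what can be said of them. Each line is 1 line, and the line and any difference in its culture cannot be told apart.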
